A study of Drosophila melanogaster with 15 samples.

Results

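The cyclic AMP and protein kinase A genes described here were 10 listed genes, found by the FlyBase symbol of their identifier among 17453 gene identifiers counted in each library. They fall into 4 roles. *Nf1*, *amn*, *rut* and *dnc* act upstream of the kinase, *Pka-C1*, *Pka-C2* and *Pka-C3* encode catalytic subunits, *Pka-R1* and *Pka-R2* encode regulatory subunits, and *CrebB* encodes a downstream transcription factor. The RNA came from pooled heads of naïve males at the age of 5 days, sequenced as 15 libraries of 6 strains. The deletion strains lack *CBS* (cystathionine β-synthase), *CSE* (the γ-lyase that splits cystathionine) or both, which are transsulfuration enzymes that make hydrogen sulfide, and numbers in brackets name separate strains of a genotype. There were 2 libraries of *CBS-/-*(5), 3 of *CBS-/-*(8), 3 of *CBS-/-CSE-/-*(1), 2 of *CBS-/-CSE-/-*(2), 3 of *CSE-/-* and 2 of the control labelled WT. WT is not a wild-type stock: it is Bloomington strain 58492, which carries a Cas9 transgene driven by the *Act5C* promoter, a *DNAlig4* mutation and mutations in *yellow* and *white*. The deletion strains were made with CRISPR/Cas9 and, by the study's account, carry *yellow* and *white* mutations too. Whether they still hold the Cas9 transgene or the *DNAlig4* mutation is not given in the sources used here. The replicates were separate head pools, so the spread between libraries includes the spread between pools.

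Cyclic AMP is made by adenylyl cyclases, which are switched on or off by G proteins below neuromodulator receptors, and is broken down by phosphodiesterases. In its absence, regulatory subunits hold the catalytic subunits of protein kinase A inactive, and when they bind cyclic AMP they release the catalytic subunits, which phosphorylate ion channels, synaptic proteins and transcription factors. In the *Drosophila* head this route is best known for olfactory learning in the mushroom body, where *rut* and *dnc* were among the earliest learning mutants.

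The libraries held 6850445 to 21144213 reads on genes, with a median of 10285508. The deleted genes followed the labels: *CBS* reads fell to between 3 and 55 counts per library in the 4 strains without *CBS*, against 1217 and 1396 in WT, and *CSE* reads to between 10 and 25 counts in the 3 strains without *CSE*, against 233 and 262 in WT. Levels are given as CPM, the usual read counts relative to library size, on library totals scaled by the trimmed mean of M values (TMM). A gene was called when the edgeR quasi-likelihood test gave a Benjamini-Hochberg adjusted p under 0.05 over all genes tested in that comparison. In *CSE-/-*, which keeps the *CBS* gene, *CBS* stood at 68.14 to 120.9 CPM, below the 173.6 to 202.1 CPM of WT. That difference was not called (log2 fold change -1.002, edgeR adjusted p 0.3878). All 5 comparisons with WT use the same 2 WT libraries, so they are not independent of each other, and each is given by its own values.

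Of the 10 genes, 8 had enough reads to be tested. Among these, *Pka-C1* and *Pka-R2* fell in each of the 4 strains without *CBS*, and no member was called in *CSE-/-*. That is 2 of 8 members lower in each strain without *CBS* and 0 of 8 in *CSE-/-*, with none higher. Over all tested genes the test called 7.74% lower and 1.6% higher in *CBS-/-*(5), 4.67% and 1.76% in *CBS-/-*(8), 3.03% and 1.15% in *CBS-/-CSE-/-*(1), 2.36% and 1.1% in *CBS-/-CSE-/-*(2), and 0.565% and 0.213% in *CSE-/-*. With 8 tested genes, 2 calls are a count of named genes and not a property of the pathway. The median log2 fold change of the 8 members was 0.06 in *CBS-/-*(5), 0.01 in *CBS-/-*(8), -0.51 in *CBS-/-CSE-/-*(1), -0.36 in *CBS-/-CSE-/-*(2) and -0.12 in *CSE-/-*. The median over all genes tested lay between 0.01 and 0.04 in the same comparisons.

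**Figure D1:**
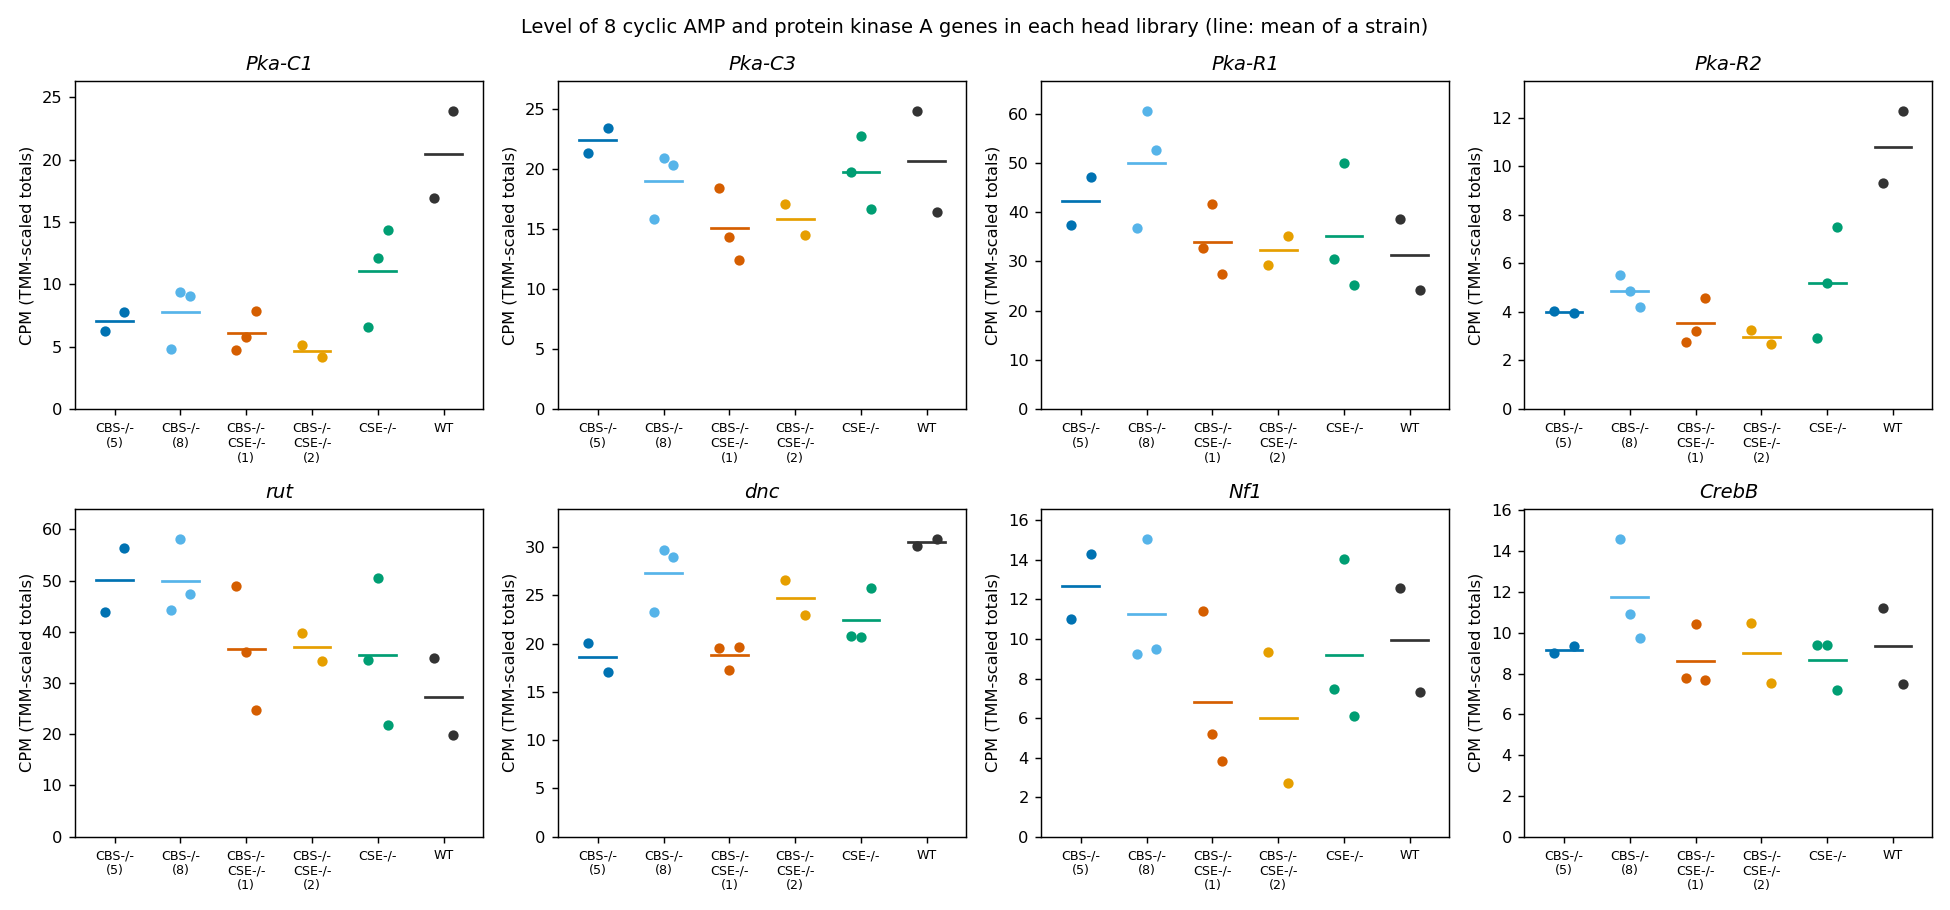
Level of the 8 tested genes in each library, in CPM on TMM-scaled totals, by strain with WT on the right; points are libraries and lines are the mean of a strain. All 10 libraries without *CBS* sit below both WT libraries for *Pka-C1*, *Pka-R2* and *dnc*, as for 8.23% of 9781 genes. *Pka-C3*, *Pka-R1*, *Nf1* and *CrebB* overlap WT.

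No upstream member passed the edgeR test in any comparison with WT. *rut* encodes the calcium- and calmodulin-responsive adenylyl cyclase (chromosome X, 14787478 to 14826073, minus strand, coordinates in dm6). It was measured at 43.9 and 56.3 CPM in *CBS-/-*(5), 44.3, 58.2 and 47.4 CPM in *CBS-/-*(8), 49.0, 36.0 and 24.7 CPM in *CBS-/-CSE-/-*(1), 39.9 and 34.3 CPM in *CBS-/-CSE-/-*(2) and 34.5, 50.4 and 21.7 CPM in *CSE-/-*, against 34.8 and 19.8 CPM in WT. Of the 10 libraries without *CBS*, 8 lay above both WT libraries and the other 2 between them. The log2 fold change of *rut* was 0.89 ± 0.30 (SE) in *CBS-/-*(5), with an edgeR adjusted p of 0.117, and 0.85 ± 0.30 in *CBS-/-*(8), with an adjusted p of 0.138. It was 0.42 in both double-deletion strains and 0.37 in *CSE-/-*. Whether *rut* is called depends on the setting: it was called higher in *CBS-/-*(5) by DESeq2 (0.87, adjusted p 0.0465) and by edgeR with the replicate number as a block (0.93, adjusted p 0.0244), and in *CBS-/-*(8) with a length trend removed (0.87, adjusted p 0.0403).

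*dnc* encodes the cyclic AMP phosphodiesterase that lies opposite *rut* in the route (chromosome X, 3176440 to 3343767, plus strand). It stood at 20.1 and 17.1 CPM in *CBS-/-*(5), 23.3, 29.7 and 29.0 CPM in *CBS-/-*(8), 19.5, 17.3 and 19.6 CPM in *CBS-/-CSE-/-*(1), 26.6 and 22.9 CPM in *CBS-/-CSE-/-*(2) and 20.8, 20.7 and 25.8 CPM in *CSE-/-*, against 30.1 and 30.9 CPM in WT. Each of the 10 libraries without *CBS* was below both WT libraries, as for 8.23% of 9781 genes. The WT libraries differed by less than 1 CPM, and *CBS-/-*(8) came within 1 CPM of them. No *dnc* difference was called, with log2 fold changes of -0.70 ± 0.18 in *CBS-/-*(5), adjusted p 0.0662, -0.70 ± 0.19 in *CBS-/-CSE-/-*(1), adjusted p 0.0979, and -0.17 to -0.45 in the other 3 strains. In *CBS-/-CSE-/-*(1), *dnc* was called lower in a single edgeR fit of all 15 libraries (-0.70, adjusted p 0.0402) and with the replicate number as a block (-0.64, adjusted p 0.0465).

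*Nf1* encodes neurofibromin, a Ras GTPase-activating protein that in flies is also needed for normal cyclic AMP synthesis (chromosome arm 3R, 25983013 to 25995737, plus strand). Its level was 11.0 and 14.3 CPM in *CBS-/-*(5), 9.25, 15.1 and 9.47 CPM in *CBS-/-*(8), 11.4, 5.18 and 3.85 CPM in *CBS-/-CSE-/-*(1), 9.36 and 2.69 CPM in *CBS-/-CSE-/-*(2) and 7.48, 14.03 and 6.10 CPM in *CSE-/-*, against 12.6 and 7.31 CPM in WT. Every strain had at least 1 library inside the range of WT, and libraries of a single strain differed by up to 3.5 times, as in *CBS-/-CSE-/-*(2). The log2 fold changes ran from -0.75 ± 0.62 in *CBS-/-CSE-/-*(2) to 0.35 ± 0.31 in *CBS-/-*(5). *amn*, which encodes a neuropeptide precursor that acts on cyclic AMP in memory, had 26 counts in all 15 libraries together and at most 3 counts in 13 of them. Its highest values were 7 counts in *CBS-/-*(5) replicate 3 and 5 counts in *CBS-/-*(8) replicate 5. A difference in *amn* was not detectable at this depth, where 3 counts are worth 0.154 to 0.498 CPM, and its exons overlap *Hers* on the opposite strand over 140 bases.

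The catalytic subunits did not move together. *Pka-C1* encodes the main catalytic subunit in flies (chromosome arm 2L, 9682315 to 9699297, minus strand) and was measured at 6.24 and 7.80 CPM in *CBS-/-*(5), 4.77, 9.42 and 9.09 CPM in *CBS-/-*(8), 4.76, 5.75 and 7.88 CPM in *CBS-/-CSE-/-*(1), 5.13 and 4.15 CPM in *CBS-/-CSE-/-*(2) and 6.60, 12.1 and 14.3 CPM in *CSE-/-*, against 16.9 and 23.9 CPM in WT. No library without *CBS* overlapped WT, and 8.23% of 9781 genes had all 10 such libraries below both WT libraries. The highest *CSE-/-* library came closest to WT. *Pka-C1* fell to 35.0% of WT in *CBS-/-*(5) (log2 fold change -1.51 ± 0.26, edgeR adjusted p 0.0217) and to 38.1% in *CBS-/-*(8) (-1.39 ± 0.34, adjusted p 0.0314). It fell to 30.0% in *CBS-/-CSE-/-*(1) (-1.74 ± 0.29, adjusted p 0.0204) and to 22.6% in *CBS-/-CSE-/-*(2) (-2.15 ± 0.29, adjusted p 0.0225). In *CSE-/-* it was at 53.9% of WT and was not called (-0.89 ± 0.36, adjusted p 0.613). In whole heads, fewer cells of a type and less RNA per cell cannot be told apart.

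*Pka-C3* encodes a more distant catalytic subunit, related to human PRKX (chromosome arm 3L, 15925805 to 15954797, minus strand). It ranged from 21.4 to 23.5 CPM in *CBS-/-*(5), 15.8 to 20.9 CPM in *CBS-/-*(8), 12.5 to 18.4 CPM in *CBS-/-CSE-/-*(1), 14.5 to 17.1 CPM in *CBS-/-CSE-/-*(2) and 16.7 to 22.8 CPM in *CSE-/-*, against 16.4 and 24.9 CPM in WT. Every strain overlapped WT. The log2 fold changes of *Pka-C3* from WT lay between -0.46 ± 0.28 and 0.13 ± 0.24, and none was called. *Pka-C2*, a relative of *Pka-C1*, had 12 counts in the 15 libraries together, none in 9 of them and never more than 3, so nothing can be said of its level except that it was at or under the 3-count floor of 0.154 to 0.498 CPM in each library.

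The regulatory subunits divided in the same way. *Pka-R2* encodes the type II regulatory subunit, the form that anchoring proteins bind (chromosome arm 2R, 9993890 to 10026042, minus strand). It stood at 4.04 and 3.94 CPM in *CBS-/-*(5), 5.52, 4.88 and 4.21 CPM in *CBS-/-*(8), 2.77, 3.23 and 4.58 CPM in *CBS-/-CSE-/-*(1), 3.26 and 2.69 CPM in *CBS-/-CSE-/-*(2) and 2.93, 5.18 and 7.49 CPM in *CSE-/-*, against 9.33 and 12.3 CPM in WT. As for *Pka-C1*, all 10 libraries without *CBS* lay below both WT libraries, which held for 8.23% of 9781 genes. *Pka-R2* fell to 37.7% of WT in *CBS-/-*(5) (log2 fold change -1.41 ± 0.26, edgeR adjusted p 0.0270) and to 44.5% in *CBS-/-*(8) (-1.17 ± 0.31, adjusted p 0.0482). It fell to 32.6% in *CBS-/-CSE-/-*(1) (-1.62 ± 0.31, adjusted p 0.0307) and to 27.3% in *CBS-/-CSE-/-*(2) (-1.87 ± 0.32, adjusted p 0.0407). In *CSE-/-* it was at 47.8% of WT and was not called (-1.06 ± 0.41, adjusted p 0.591). *Pka-R2* has few reads, with 32 counts in its lowest library, where the exact Poisson 95% interval runs from 1.89 to 3.91 CPM and covers counting error only.

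*Pka-R1* encodes the type I regulatory subunit (chromosome arm 3L, 20816118 to 20836048, plus strand). Its level was 37.4 and 47.1 CPM in *CBS-/-*(5), 36.7, 60.6 and 52.7 CPM in *CBS-/-*(8), 32.8, 41.7 and 27.4 CPM in *CBS-/-CSE-/-*(1), 29.3 and 35.2 CPM in *CBS-/-CSE-/-*(2) and 30.4, 49.9 and 25.2 CPM in *CSE-/-*, against 38.7 and 24.1 CPM in WT. The WT libraries were far apart and every strain overlapped them. The log2 fold changes of *Pka-R1* from WT were 0.44 ± 0.27 in *CBS-/-*(5), 0.65 ± 0.31 in *CBS-/-*(8) and 0.02 to 0.16 in the other 3 strains, none of them called. *CrebB*, the cyclic AMP response element binding protein (chromosome X, 18366357 to 18377864, plus strand), ranged from 7.17 to 14.6 CPM over the deletion libraries, against 11.2 and 7.47 CPM in WT. Its log2 fold changes lay between -0.12 and 0.30, with standard errors of 0.26 to 0.33, and 6.89% of its exon length overlaps *por* on the opposite strand.

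**Figure D2:**
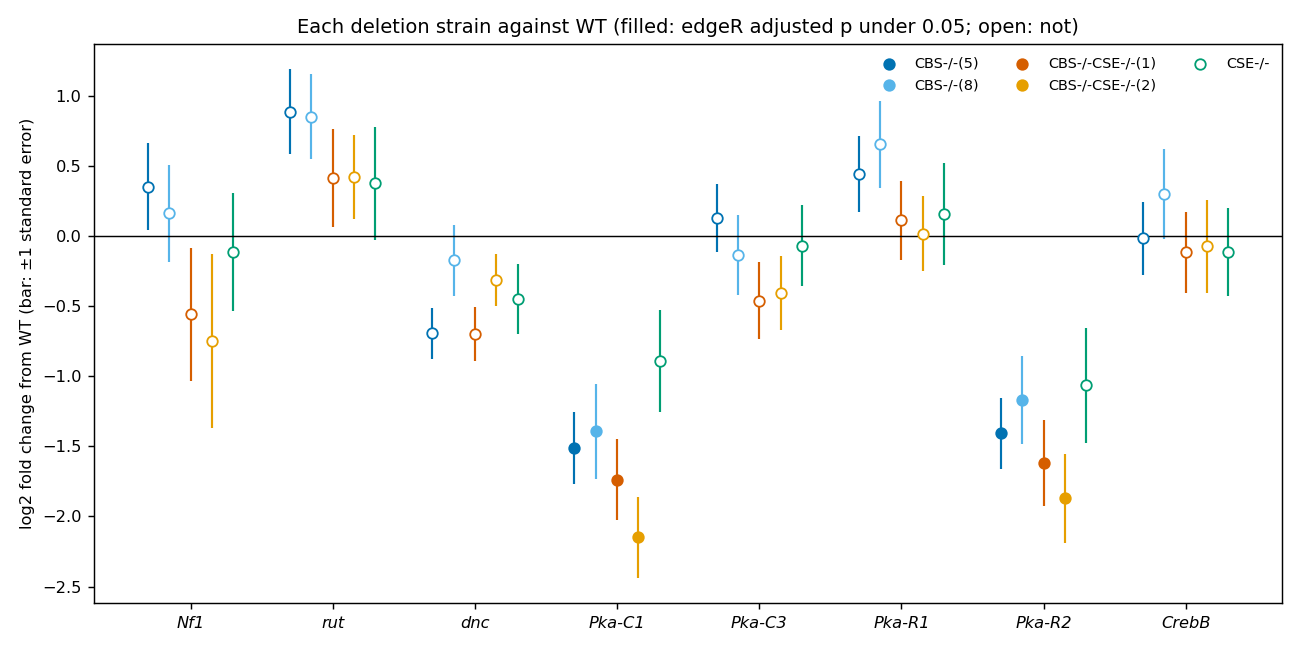
Log2 fold change of each tested gene from WT in the 5 deletion strains, in the order of the legend; bars are 1 standard error, filled points have an edgeR adjusted p under 0.05 and open points do not. The filled points are *Pka-C1* and *Pka-R2* in the 4 strains without *CBS*, at -1.17 or lower.

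The calls of *Pka-C1* and *Pka-R2* rest on few WT libraries. Without WT replicate 3, in which both genes were higher than in WT replicate 1, no member was called in any strain. *Pka-C1* then had log2 fold changes of -1.26, -1.09, -1.47 and -1.88 in *CBS-/-*(5), *CBS-/-*(8), *CBS-/-CSE-/-*(1) and *CBS-/-CSE-/-*(2), with edgeR adjusted p of 0.119, 0.318, 0.105 and 0.0759, and *Pka-R2* had -1.21, -0.93, -1.41 and -1.67 with adjusted p of 0.113, 0.423, 0.169 and 0.128. Without WT replicate 1, *Pka-C1* remained called in all but *CBS-/-CSE-/-*(2), where the adjusted p was 0.0529. *Pka-C1* was also not called without *CBS-/-CSE-/-*(1) replicate 2 in that strain, with an adjusted p of 0.128. *Pka-R2* was closer to the threshold: it was not called without WT replicate 1 in *CBS-/-*(8), *CBS-/-CSE-/-*(1) and *CBS-/-CSE-/-*(2) (adjusted p 0.0699, 0.0868 and 0.0847), without either *CBS-/-*(5) library (0.0668 and 0.0654), without *CBS-/-*(8) replicate 2 or 5 (0.0969 and 0.209), or without *CBS-/-CSE-/-*(1) replicate 1 or 2 (0.0712 and 0.160). Both genes kept a fold change below zero in all 5 strains with any single library left out.

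The share of 9781 genes whose 10 libraries without *CBS* lay below both WT libraries was 8.23%, and the share that lay above was 5.57%. Among the 8 tested members, 3 were below, which are *Pka-C1*, *Pka-R2* and *dnc*, and none was above.

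The levels of different subunits can be compared within a library, where library scaling cancels. Counts were divided by the length of each gene's merged exons. Per kilobase, the ratio of *Pka-C1* to *Pka-R2* was 1.31 and 1.68 in *CBS-/-*(5), 0.733 to 1.83 in *CBS-/-*(8), 1.46 to 1.51 in *CBS-/-CSE-/-*(1), 1.31 and 1.34 in *CBS-/-CSE-/-*(2) and 1.62 to 1.99 in *CSE-/-*, against 1.54 and 1.65 in WT. The mean log2 ratio of a deletion strain differed from that of WT by -0.29 to 0.20. The other ratios with *Pka-C1* or *Pka-R2* moved further. The ratio of *Pka-C1* to *Pka-R1* was 0.106 to 0.260 in the 10 libraries without *CBS*, against 0.395 and 0.896 in WT, and that of *Pka-R1* to *Pka-R2* was 5.62 to 12.3, against 3.90 and 1.84 in WT. In *CSE-/-* replicates 1, 3 and 4 these ratios were 0.196, 0.219 and 0.515, and 9.75, 9.05 and 3.15. Only replicate 4 lay within the range of WT, and replicates 1 and 3 lay within the range of the libraries without *CBS*. The WT libraries themselves differed by more than 2-fold in both ratios, and no test was run on them.

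As shares of the catalytic reads per kilobase, *Pka-C1* made up 12.2% to 24.8% in the 10 libraries without *CBS* and 14.9% to 31.7% in *CSE-/-*, against 26.6% and 44.0% in WT, and *Pka-C3* made up nearly all of the rest. *Pka-R2* made up 7.52% to 15.1% of the regulatory reads per kilobase in the libraries without *CBS* and 9.30% to 24.1% in *CSE-/-*, against 20.4% and 35.2% in WT. The summed catalytic level over the summed regulatory level was 0.661 to 1.03 in the libraries without *CBS* and 0.884 to 1.23 in *CSE-/-*, against 1.18 and 1.32 in WT. These are ratios of messages, and no protein was measured.

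**Figure D3:**
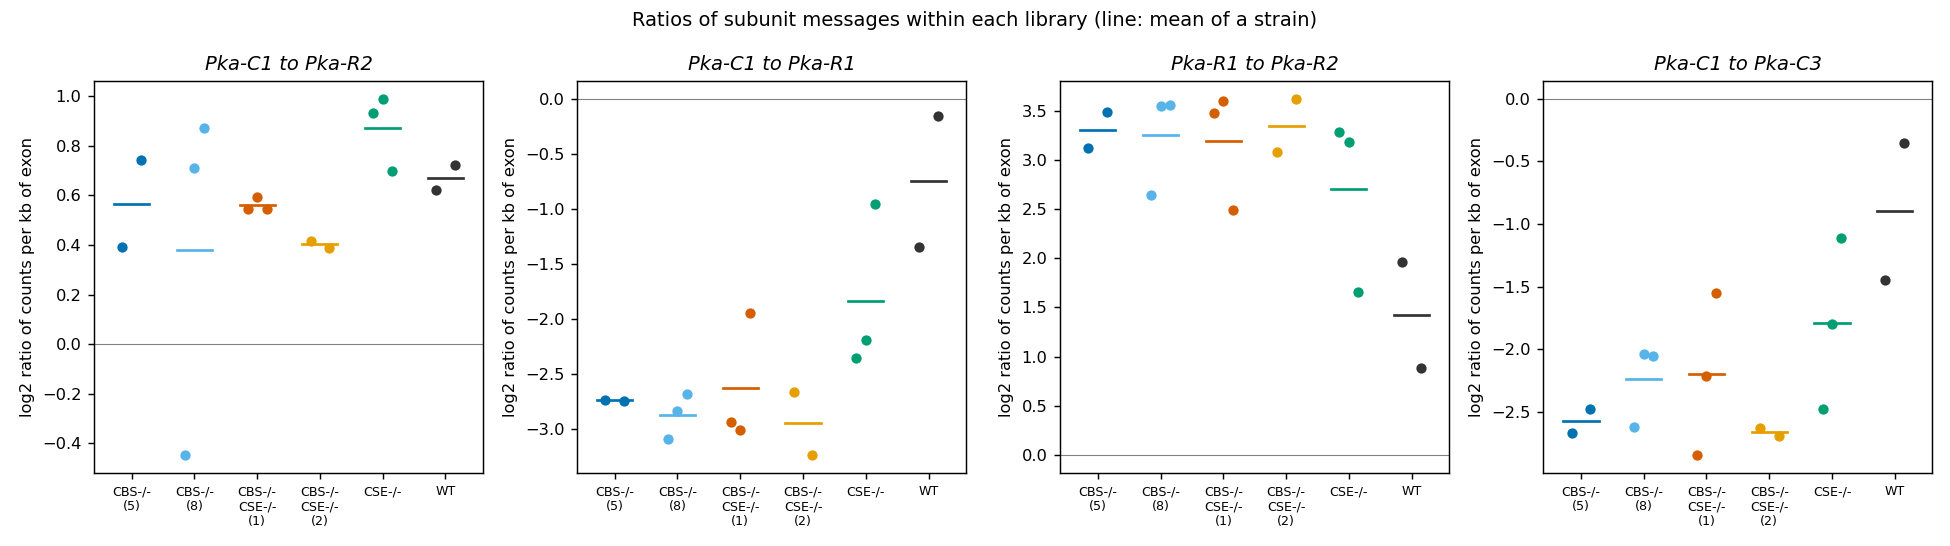
Log2 ratio of counts per kilobase of exon between subunit genes within each library, by strain with WT on the right; points are libraries and lines the mean of a strain. *Pka-C1* to *Pka-R2* stays near the WT libraries in most strains, with *CBS-/-*(8) replicate 1 apart at -0.447. In both double-deletion strains this ratio lies below WT without overlap. Their highest libraries are at 0.592 ± 0.227 in *CBS-/-CSE-/-*(1) and 0.417 ± 0.269 in *CBS-/-CSE-/-*(2), against 0.621 ± 0.207 in WT replicate 1 (± counting SE). *Pka-C1* to *Pka-R1*, *Pka-R1* to *Pka-R2* and *Pka-C1* to *Pka-C3* do not overlap WT in the 4 strains without *CBS*. For *Pka-C1* to *Pka-C3* the gap is within counting error: -1.55 ± 0.20 in *CBS-/-CSE-/-*(1) replicate 3, against -1.45 ± 0.16 in WT replicate 1 (± counting SE).

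The members were also ordered by their mean CPM per kilobase. In each of the 5 deletion strains *Pka-R1* had the highest mean, then *Pka-C3* and *rut*. The libraries of *Pka-R1* and *Pka-C3* overlapped in *CBS-/-*(5), *CBS-/-CSE-/-*(1), *CSE-/-* and WT, and those of *Pka-C3* and *rut* in *CBS-/-*(8) and *CBS-/-CSE-/-*(1). In WT the order was *Pka-C3* (6.68 ± 1.93, SD, n = 2), *Pka-R1* (6.07 ± 2.00), *Pka-C1* (3.57 ± 0.86), *rut* (2.84 ± 1.11), *Pka-R2* (2.23 ± 0.43), *CrebB* (1.87 ± 0.53), *dnc* (1.83 ± 0.03) and *Nf1* (0.987 ± 0.369), with *amn* and *Pka-C2* last. Neighbours in the WT order whose libraries did not overlap were *Pka-R1* above *Pka-C1*, *dnc* above *Nf1* and *Nf1* above *amn*. *Pka-C1* ranked 3rd in WT, 4th in *CSE-/-* and 6th in each strain without *CBS*, where its mean lay between 0.811 and 1.36 CPM per kilobase. Its libraries overlapped those of both neighbours in the order in *CBS-/-*(5), *CBS-/-*(8), *CBS-/-CSE-/-*(1) and *CSE-/-*, and those of *rut* in WT. In *CBS-/-CSE-/-*(2) they overlapped neither neighbour.

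Between genotypes, both double-deletion strains were set against both *CBS-/-* strains. The libraries of both strains of a genotype were pooled as 1 group with no term for strain. The adjusted p therefore reflects the spread between libraries and does not treat strains as the replicates. *CSE-/-* is a single strain in the comparisons with it. In the double-deletion against the *CBS-/-* strains, 14.4% of 9230 genes were called lower and 13.3% higher. Among the members 1 of 8 was called, which is close to the background. *Pka-R1* was lower in the double-deletion strains, with a log2 fold change of -0.50 ± 0.17 and an edgeR adjusted p of 0.0467, although its double-deletion libraries at 27.4 to 41.7 CPM overlap those of the *CBS-/-* strains at 36.7 to 60.6 CPM. The *Pka-R1* call was kept in 1 of 10 fits that left out a library, the one without *CBS-/-*(8) replicate 1, with adjusted p of 0.0212 to 0.121 over the 10 fits. All 8 members had a value below zero, from -0.88 ± 0.36 for *Nf1* (adjusted p 0.0791) to -0.17 ± 0.18 for *dnc*, with a median of -0.45, against -0.06 over all genes. *Pka-C3* missed the threshold at -0.41 ± 0.14 (adjusted p 0.0505), as did *rut* at -0.45 ± 0.17 (0.0671), *Pka-R2* at -0.46 ± 0.19 (0.0862) and *Pka-C1* at -0.45 ± 0.23 (0.138).

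Gene length moved with this difference. Genes with 4 to 8 kb of merged exons had a median log2 fold change of -0.45 in the same comparison, and 30.8% of them were called lower. *Pka-R1*, with 5167 bases, *Pka-C1*, *Pka-R2* and *CrebB* are in this class. Genes over 8 kb, as *Nf1*, *rut* and *dnc* are, had a median of -0.47, with 25.2% called lower. Genes of 2 to 4 kb, as *Pka-C3* is, had a median of -0.16 and 17.2%, and genes under 1 kb 0.32 and 3.60%. The member median of -0.45 was thus near the medians of the longer classes, which hold most members. With a length trend removed per library, *Pka-R1* stood at -0.09 (adjusted p 0.696).

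Against *CSE-/-*, no member was called in the *CBS-/-* strains (0.904% of 9407 genes lower and 0.617% higher) or in the double-deletion strains (0.708% of 9603 genes lower and 1.02% higher). At an unadjusted p under 0.05 there were 0 members in the *CBS-/-* strains and 1, *Pka-C1*, in the double-deletion strains. *Pka-C1* was 4.15 to 7.88 CPM there, against 6.60, 12.1 and 14.3 CPM in *CSE-/-*, a log2 fold change of -1.001 ± 0.287 with an edgeR adjusted p of 0.111 and a DESeq2 adjusted p of 0.0470. In the *CBS-/-* strains it was -0.58 ± 0.31 (edgeR adjusted p 0.573). The *Pka-C1* values of *CSE-/-*, which were not called against WT, were thus not shown to differ from those of the strains without *CBS* by edgeR. In *CSE-/-* against WT, edgeR and DESeq2 both called 0 members, and 2 members, *Pka-C1* and *Pka-R2*, had an unadjusted p under 0.05.

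A list of 50 other genes of the route was compared in the same fits, and it holds receptors, G proteins, cyclases, phosphodiesterases, channels and kinases. Called lower and higher were 2 and 1 of 45 tested in *CBS-/-*(5), 2 and 1 of 45 in *CBS-/-*(8), 4 and 0 of 45 in *CBS-/-CSE-/-*(1), 3 and 0 of 44 in *CBS-/-CSE-/-*(2) and 1 and 0 of 46 in *CSE-/-*. Over all tested genes, 7.74%, 4.67%, 3.03%, 2.36% and 0.565% were called lower in that order, and 1.6%, 1.76%, 1.15%, 1.1% and 0.213% higher. The medians of the list were 0.31, 0.11, -0.31, -0.40 and 0.02 in the same order of strains, against 0.01 to 0.04 over all genes. Only 3 genes were called in the same direction in at least 2 of the comparisons with WT.

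*Galphao* encodes the alpha subunit of the G protein Go, which in flies is needed for olfactory learning. It was at 9.08 and 10.7 CPM in *CBS-/-*(5), 5.52, 10.5 and 8.90 CPM in *CBS-/-*(8), 4.93, 6.93 and 7.51 CPM in *CBS-/-CSE-/-*(1), 7.42 and 4.56 CPM in *CBS-/-CSE-/-*(2) and 6.75, 11.7 and 14.9 CPM in *CSE-/-*, against 18.4 and 19.4 CPM in WT. All 10 libraries without *CBS* lay below both WT libraries, which held for 8.23% of 9781 genes. *Galphao* fell in the 4 strains without *CBS*, with log2 fold changes of -0.91, -1.19, -1.55 and -1.67. The edgeR adjusted p were 0.0425, 0.0461, 0.0192 and 0.0488 in that order. In *CSE-/-* the log2 fold change was -0.78 (adjusted p 0.719).

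*ACXD*, a member of the ACX family of adenylyl cyclases, fell in all 5 strains, at 11.8 and 12.9 CPM in *CBS-/-*(5), 12.9 to 24.02 CPM in *CBS-/-*(8), 11.1 to 19.9 CPM in *CBS-/-CSE-/-*(1), 15.5 and 16.1 CPM in *CBS-/-CSE-/-*(2) and 5.35 to 8.07 CPM in *CSE-/-*, against 35.3 and 45.3 CPM in WT. Its largest difference was in *CSE-/-*, with a log2 fold change of -2.66 ± 0.29 (edgeR adjusted p 0.00361), and the double-deletion strains exceeded *CSE-/-* (1.32 ± 0.23, adjusted p 0.0210). *ACXD* is 1 of a family of related genes, and how reads shared between them were counted is not given in the sources used here. *Ih*, a channel gated by voltage and cyclic nucleotides, fell in both double-deletion strains (-1.27 ± 0.21, adjusted p 0.0209, and -1.43 ± 0.24, adjusted p 0.0400), at 19.1 to 25.3 and 16.3 to 22.4 CPM, against 56.3 and 46.7 CPM in WT.

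In the double-deletion strains against the *CBS-/-* strains, 17 of 45 listed genes were lower and 0 higher, beside 14.4% lower over all genes. With the length trend removed, 4 were lower. The share of all genes called lower in that fit was not counted, so those 4 have no background beside them. Among the 17, chosen after their values were seen, are the dopamine receptor *Dop1R2* (-0.99 ± 0.24, edgeR adjusted p 0.0244), the cyclase *Ac13E* (-0.78 ± 0.16, 0.0167) and *Epac*, the exchange factor that binds cyclic AMP (-0.83 ± 0.23, 0.0311). Against *CSE-/-*, 0 of 45 were called in the *CBS-/-* strains and 1 of 45, *ACXD*, in the double-deletion strains.

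*Pka-C1* and *Pka-R2* shared features that the list did not use. Their longest annotated 3′ UTRs were 3202 and 2601 bases, 55.9% and 53.6% of their merged exons, against 406 to 1962 bases in *Pka-C3*, *Nf1*, *CrebB* and *Pka-R1*. *rut*, with 3003 bases, and *dnc*, with 4594 bases, have 3′ UTRs as long and were not called. Among the 289 tested genes with a 3′ UTR over 3 kb, 22.5%, 22.5%, 20.4% and 19.7% were called lower in *CBS-/-*(5), *CBS-/-*(8), *CBS-/-CSE-/-*(1) and *CBS-/-CSE-/-*(2), and 0.346% in *CSE-/-*. The median log2 fold change of these genes was -0.38, -0.50, -0.81, -0.86 and -0.44 in the same order. *Pka-R2* is not in this class. Of the genes with a 3′ UTR of 2 to 3 kb, as *Pka-R2* has, 5.51%, 5.5%, 6.28%, 3.27% and 0.249% were called lower in that order of strains, beside 7.74%, 4.67%, 3.03% and 2.36% over all tested genes in the 4 strains without *CBS*. *Galphao*, with 4001 bases, and *Ih*, with 3132 bases, are in the class over 3 kb. *ACXD*, which fell in all 5 deletion strains, has 2071 bases and is in the class of 2 to 3 kb. The part of 3′ UTR length in the falls of *Pka-C1* and *Pka-R2* was not tested.

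**Figure D4:**
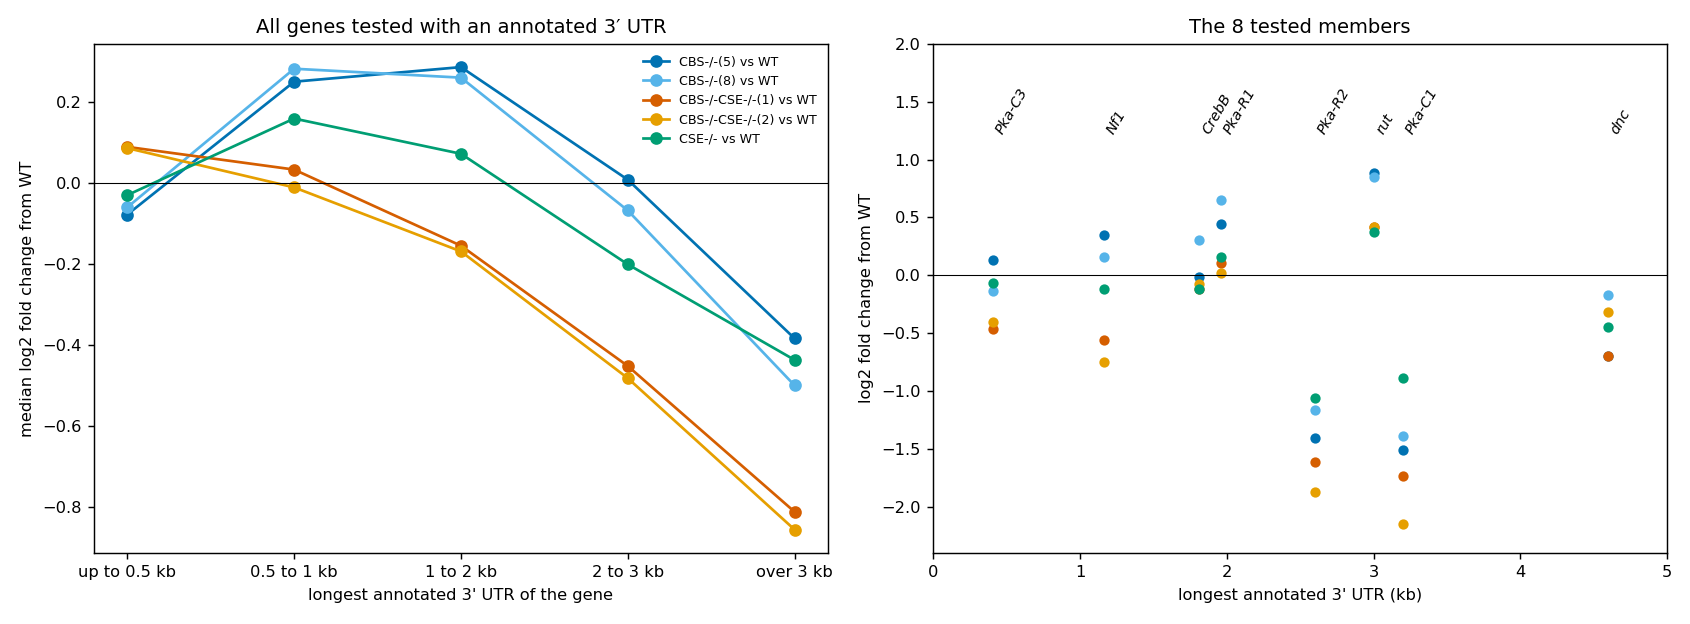
Left, median log2 fold change from WT of all tested genes by the length of their longest annotated 3′ UTR in 5 classes; right, the log2 fold change of the 8 members against that length in kb, 1 point per strain in the same colours. In the left panel the class over 3 kb is lowest in every strain, and in the right panel *Pka-C1* and *Pka-R2* lie lowest while *rut*, of like length, lies above zero.

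Over the 15 libraries, log2 CPM of *Pka-C1* and *Pka-R2* correlated with a Pearson r of 0.89 (Spearman 0.80), and with 0.65 after the mean of each strain was removed. A different set of members moved with the library scaling. The TMM factor correlated with *rut* at 0.83, *Pka-R1* at 0.83, *Nf1* at 0.80 and *Pka-C3* at 0.77, and with *Pka-C1* at 0.01, *Pka-R2* at -0.11 and *dnc* at -0.02. *rut* and *Pka-R1* correlated with each other at 0.83, and *Nf1* and *Pka-C3* at 0.85. The part of library composition in the values of *rut*, *Pka-R1*, *Nf1* and *Pka-C3* was not tested. The libraries share strains and processing, so these are descriptions.

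The 3 genes most like *Pka-C1* over the 15 libraries, among 6198 genes with a mean of at least 10 CPM, were *Rbp6* (r = 0.99), which encodes an RNA-binding protein of the Musashi family, *CG3638* (0.98) and *mub* (0.97), which encodes a KH-domain protein of the mushroom body. For *Pka-R2* they were *Syt1* (0.95), the calcium sensor of synaptic vesicle release, *Sh* (0.94), the Shaker potassium channel, and *mub* (0.93). The genes of both sets had longest 3′ UTRs of 4011 to 9514 bases. For *rut* they were *spri* (0.97), *IRSp53* (0.97) and *lva* (0.96), whose longest 3′ UTRs had 332 to 1135 bases.

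Some neuron markers were called lower where *Pka-C1* and *Pka-R2* were, and others were not called. Of 5 matched markers, *elav*, *Syt1* and *nrv3* fell in each strain without *CBS*. *nSyb* and *brp* did not pass the test against WT, with log2 fold changes of 0.51 and 0.21 in *CBS-/-*(5), 0.50 and -0.73 in *CBS-/-*(8), -0.41 and -1.11 in *CBS-/-CSE-/-*(1), and -0.40 and -1.58 in *CBS-/-CSE-/-*(2). *nSyb* was thus above WT in both *CBS-/-* strains, and *brp* was below it in all but *CBS-/-*(5). In *CSE-/-* all 5 markers were below zero, from -1.30 for *elav* to -0.12 for *nSyb*, and none was called. Their summed level was 234 to 257 CPM in *CBS-/-*(5), 186 to 276 CPM in *CBS-/-*(8), 141 to 152 CPM in *CBS-/-CSE-/-*(1), 116 to 151 CPM in *CBS-/-CSE-/-*(2) and 140 to 234 CPM in *CSE-/-*, against 289 and 325 CPM in WT. Of 4 mushroom body markers, *mub* fell in each strain without *CBS* and *ey*, *Fas2* and *prt* did not, and the sum was 83.8 to 119 CPM in the deletion libraries, against 101 and 109 CPM in WT. None of the 6 photoreceptor markers or 6 glia markers, both head cell types, was at 0 in all libraries of a strain. Against WT, 1 photoreceptor marker was called lower in *CBS-/-*(5) and 1 in *CBS-/-*(8), and 1 glia marker was called higher in *CBS-/-*(5). The 15 midgut markers summed to 192 and 535 CPM in *CBS-/-*(5) and to 1877 to 29600 CPM in the other deletion libraries, against 5057 and 15190 CPM in WT, with 11 of 12 tested called lower in *CBS-/-*(5). The 5 fat body markers summed to 564 and 596 CPM in *CBS-/-*(5), 262 to 475 CPM in *CBS-/-*(8), 1204 to 1759 CPM in *CBS-/-CSE-/-*(1), 1177 and 2025 CPM in *CBS-/-CSE-/-*(2) and 603 to 836 CPM in *CSE-/-*, against 2162 and 3406 CPM in WT. In the order of the 4 strains without *CBS*, 3, 2, 4 and 3 fat body markers were called lower, and *to* was called higher in both double-deletion strains, with log2 fold changes of 3.12 and 2.96 (edgeR adjusted p 0.00765 and 0.0319). The part of neuron, mushroom body, midgut or fat body content in the falls of *Pka-C1* and *Pka-R2* was not tested.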

How the data were processed

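The authors trimmed the reads with Trimmomatic, aligned them with STAR to dm6 and counted them per gene with featureCounts, per the labels and the study's methods. The deposited values are whole read counts per gene in a file for each library, not normalized. How strand was set in counting, and which annotation was used, is not given in the sources used here. Rows for ambiguous reads (5.12% to 8.27%) and for reads outside features (2.84% to 7.24%) were left out. Ambiguous reads were 6.7% and 8.27% in the WT libraries, against 5.12% to 5.64% in the deletion libraries. WT also held the highest and the lowest share outside features, 7.24% in replicate 1 and 2.84% in replicate 3. The part of these differences in the comparisons with WT was not tested. Symbols, coordinates and exon and 3′ UTR lengths came from the Ensembl annotation of the same assembly and were found for 17179 identifiers.

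Each comparison was fitted on the libraries it compares with edgeR 4.0.16 in R 4.3.3: filterByExpr, TMM, the quasi-likelihood F test and Benjamini-Hochberg adjustment over all tested genes, called at an adjusted p under 0.05. Standard errors are the log2 fold change over the square root of F. The 5 strains were each compared with WT, and 3 comparisons were made between genotypes, with both strains of a genotype pooled as 1 group. The fits were tested on simulated data. DESeq2 1.42.0, other scalings, filters, thresholds, a single fit, length offsets (lowess span 0.3), a replicate block and each library left out were alternatives. Correlations used log2 CPM with a prior count of 2. The 10 members and all lists were chosen with earlier results of these data known. Besides the members, a pathway gene was named if called the same way in at least 2 comparisons with WT, and 3 genes by likeness to *Pka-C1*, *Pka-R2* and *rut*. *Dop1R2*, *Ac13E* and *Epac* fell outside this rule and were picked after their values were seen. Fat body (5 genes), muscle (6), hemocyte (6) and male reproductive (6) marker lists were also counted. In each of the 4 strains without *CBS*, 0 muscle genes were called lower. In the order *CBS-/-*(5), *CBS-/-*(8), *CBS-/-CSE-/-*(1) and *CBS-/-CSE-/-*(2), 1, 0, 1 and 2 hemocyte genes were called lower. No muscle or hemocyte gene was called higher in these strains. No male reproductive gene passed the count filter there.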

Additional observations from a re-analysis of the deposited data

Results flagged for a closer look

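*Pka-R1* differed between the double-deletion and the *CBS-/-* strains by a direct test of that difference: the edgeR log2 fold change was -0.50 ± 0.17 with an adjusted p of 0.0467. The call held in 1 of 10 fits that left out a library and was lost with RLE scaling (-0.46, adjusted p 0.0554), length offsets (-0.09, 0.696) and the replicate block (-0.56, 0.151). Among 16 sets of 5 libraries examined for a library standing far from the others, 0 held one, where chance alone would give about 1 in 20.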

How the results depend on the processing

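The direction of *Pka-C1* and *Pka-R2* against WT was the same under every alternative run. Members called in *CBS-/-*(5), *CBS-/-*(8), *CBS-/-CSE-/-*(1) and *CBS-/-CSE-/-*(2) against WT, 2 in each, went to 0 at an adjusted p under 0.01, and ranged over 0 to 2, 0 to 2, 0 to 2 and 0 to 3 with 1 library left out. In *CBS-/-*(5) there were 0 without a filter on low counts and 1 in a single fit of all 15 libraries, in *CBS-/-*(8) 1 in that fit, in *CBS-/-CSE-/-*(1) 3 in that fit, with *dnc* added, and 0 with length offsets, where *Pka-C1* was -1.55 (adjusted p 0.0817). The single call between the double-deletion and *CBS-/-* strains went to 0 with RLE scaling, without the filter, in the single fit, at the stricter threshold and with length offsets, to 3 with DESeq2 and to 2 with at least 10 counts in every library, and ranged over 0 to 3 with 1 library left out. Against *CSE-/-*, DESeq2 called 1 member in the double-deletion strains, and leaving out a library gave 0 to 0 there, in the *CBS-/-* strains and in *CSE-/-* against WT. Over all alternatives, 896 member fold changes stayed on their side of the threshold, 48 lost a call, 16 gained one and 0 called values changed sign. The cause was not tested. Both *Pka-C1* and *Pka-R2* have 32 counts in their lowest library, and *amn* and *Pka-C2* are below what this depth can show.

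Same-numbered libraries were not paired by the labels, and their deviations did not correlate in every pair (-0.19 in *CBS-/-*(5) and WT, 0.29 and 0.41 in *CBS-/-CSE-/-*(1) and WT, 0.08 and -0.60 in *CSE-/-* and WT). With the replicate number as a block, 3 members were called in *CBS-/-*(5), with *rut* added, 3 in *CBS-/-CSE-/-*(1), with *dnc* added, and 0 in *CSE-/-*, all against WT, and 0 in the double-deletion against the *CBS-/-* strains, where *Pka-R1* was -0.56 (adjusted p 0.151). With crossed numbers, chosen after seeing the data, 4 members were called in *CBS-/-*(5), with *rut* and *dnc* added. No block could be made for *CBS-/-*(8) and *CBS-/-CSE-/-*(2) against WT, which share fewer than 2 numbers with it.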
